A study of Mus musculus with 8 samples.

Results

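The beta subunits of the sodium-potassium ATPase are the 3 genes ATP1B1, ATP1B2 and ATP1B3, taken by symbol from the 33514 rows of the count table. All 3 have a row, but only 1 of them, ATP1B1, held enough counts to be tested. RNA came from adult C57BL/6 mouse cardiomyocytes that were isolated, plated and transfected in culture with a control siRNA (siN, 4 libraries) or an siRNA against Hoxa5 (siHoxa5, 4 libraries). Both groups received phenylephrine, which activates alpha1-adrenergic receptors, at 100 µM for 24 h, starting 24 h after transfection. Every group therefore carries phenylephrine, and no untreated cells were analysed here. Whether a group's repeats stem from different mice or dishes is not stated, so the p-values given refer to library-to-library spread, which may be technical.

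The sodium-potassium ATPase is the membrane pump that exports sodium and imports potassium at the expense of ATP. In heart muscle it keeps the sodium gradient that drives the sodium-calcium exchanger, and it is the target of cardiac glycosides such as digoxin. The alpha subunit binds the ions and splits ATP. The beta subunit is a glycosylated protein with a single membrane span that the alpha subunit needs to fold, leave the endoplasmic reticulum and reach the surface. Beta1 is the main partner of alpha subunits in heart muscle, beta2 is best known from glia, where it also acts in adhesion, and beta3 is found in many tissues at lower levels.

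The libraries held 560190 to 658192 counts each, all siHoxa5 libraries being below all siN libraries, and 5312 to 5762 rows had a count per library. Symbols are spelled as human genes, and 19 of the 33514 rows match a mouse symbol exactly while 16245 do so once case is ignored. HOXA5, the siRNA target, had 2, 0, 3 and 3 counts in siN libraries 1 to 4 and 1, 3, 4 and 1 in siHoxa5 libraries 1 to 4, too few to check the knockdown, so directions are those of the libraries labelled siHoxa5. Of 12 cardiomyocyte markers, 7 had counts and 5 (TNNI3, MYL2, MYL3, MB and PLN) were at 0 in every library, as were the endothelial markers PECAM1, CDH5 and VWF. A row near 0 in this table therefore does not show that a transcript is missing from the cells. The submitters' processing notes name a mouse build, but with human-style symbols and these heart genes at 0, the reference behind the rows is uncertain. Lengths and GC content used here are those of mouse transcripts matched by symbol, and hold for these rows only if mouse transcripts were counted. On the first principal component siHoxa5 libraries 2 and 4 (10.8 and 10.9) lay farther from the siN libraries (-7.77 to -6.30) than siHoxa5 libraries 1 and 3 (2.74 and 4.69).

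ATP1B1, the gene of the beta1 subunit, was lower in the siHoxa5 libraries. The siN libraries 1 to 4 held 2870, 2669, 2728 and 2911 counts of ATP1B1, which is 4414, 4237, 4294 and 4459 CPM (counts scaled to a common library size, with the trimmed mean of M-values, TMM). The siHoxa5 libraries 1 to 4 held 2398, 2224, 2308 and 1967 counts, or 3916, 4051, 3763 and 3578 CPM. All 4 siHoxa5 libraries lay below all 4 siN libraries, with 186 CPM between the nearest values of the groups. The group means were 4351 ± 103 CPM in siN and 3827 ± 204 CPM in siHoxa5 (SD, n = 4 each). The log2 fold change was -0.19 (SE 0.05, 95% interval -0.28 to -0.09, edgeR quasi-likelihood adjusted p = 0.00491). On the linear scale the level was 12.1% lower, with an interval of 6.11% to 17.6%. ATP1B1 thus fell by a small amount relative to its level. In these bulk libraries fewer cells of a type and less ATP1B1 RNA per cell cannot be told apart.

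Of the 3020 genes tested, 7.12% passed the adjusted threshold of 0.05 in either direction, 3.38% with a lower and 3.74% with a higher level in siHoxa5. Groups that do not overlap, with siHoxa5 lower, were found for 5.76% of tested genes, ATP1B1 being one of them. By p-value ATP1B1 ranked 95 of 3020, and 51 among the genes with a lower level in siHoxa5. Its fold change lay close to the median absolute log2 fold change over all tested genes, 0.16, while its standard error was well below their median of 0.17. ATP1B1 is a deeply counted row, with 28 rows of the table holding more counts in total. All 70 ways to split the 8 libraries into 4 and 4 were enumerated in a two-sided exact permutation test, which gave p = 0.0286 for ATP1B1 (difference of mean log2 CPM -0.19), the smallest p that this design can give.

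**Figure D1:**
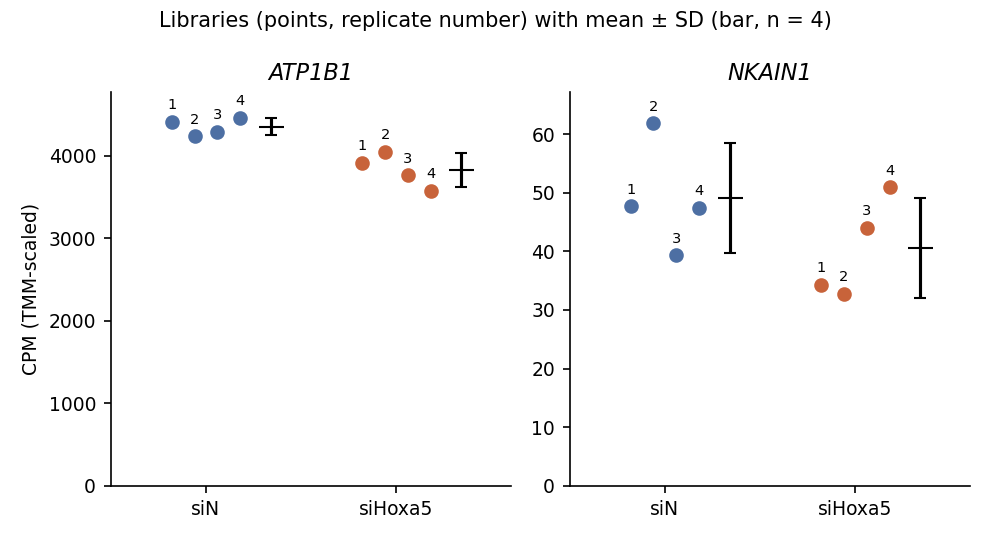
CPM (vertical axis, from 0, TMM-scaled) of ATP1B1 and NKAIN1, which encodes a protein that binds the beta1 subunit, in each library, with the replicate number beside each point and the mean ± SD of each group as a bar (n = 4). The 4 siHoxa5 libraries lie below the 4 siN libraries for ATP1B1, between 3578 and 4051 against 4237 and 4459 CPM, while the groups overlap for NKAIN1.

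The siHoxa5 libraries varied more in ATP1B1 than the siN libraries. The coefficient of variation was 5.32% in siHoxa5 and 2.37% in siN, beside 2.13% and 1.89% from counting error alone. The siN libraries thus differed from each other by little more than counting error, and the siHoxa5 libraries by more than that. A wider spread in siHoxa5 was not particular to ATP1B1. Over all tested genes, chi-square per degree of freedom was 1.47 to 2.57 for pairs of siHoxa5 libraries and 1.37 to 1.55 for pairs of siN libraries. Set against the siN mean on the log2 scale, siHoxa5 libraries 1 to 4 were at -0.15, -0.10, -0.21 and -0.28. The libraries that stood apart on the first principal component, siHoxa5 2 and 4, were the highest and the lowest of their group in ATP1B1. Without both, ATP1B1 had -0.18 (SE 0.04) with an edgeR adjusted p = 0.00158, so the fall was about as large without them.

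The choice of scaling changed the fold change of ATP1B1 only slightly. Every siHoxa5 library had a lower total than every siN library, so sequencing depth and group cannot be told apart. ATP1B1 took 0.439%, 0.420%, 0.427% and 0.442% of all counts in siN libraries 1 to 4, and 0.390%, 0.397%, 0.372% and 0.342% in siHoxa5 libraries 1 to 4. With library totals in place of TMM the log2 fold change was -0.20 (edgeR adjusted p = 0.000762). One alternative ended the call. When dependence on transcript length and on GC content was taken out of every library, over the 2898 tested genes (96.0%) that have a mouse transcript of the same name, ATP1B1 had -0.13 (SE 0.05, edgeR adjusted p = 0.0725), an interval of -0.22 to -0.04. This setting was chosen after seeing the data.

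**Figure D2:**
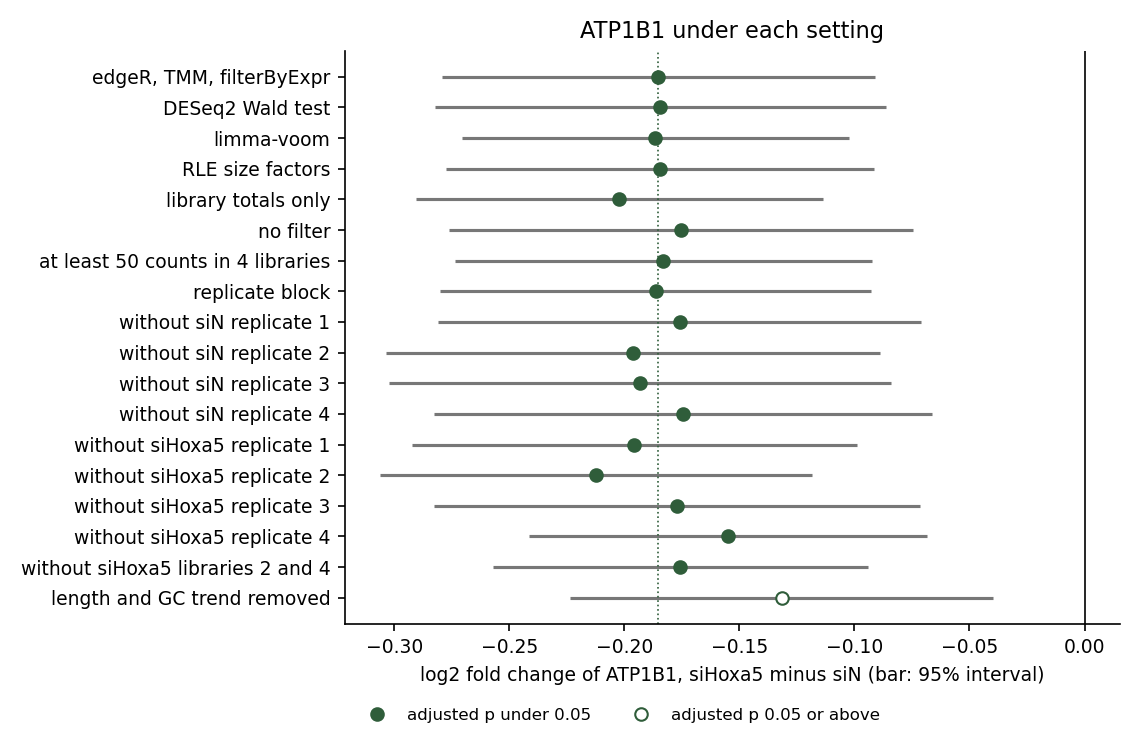
Log2 fold change of ATP1B1, siHoxa5 minus siN (horizontal axis), with its 95% interval under each test, scaling, filter and set of libraries. The values run from -0.21 to -0.13, and the filled points mark an adjusted p under 0.05, which every setting gave except the removal of the length and GC trend (open point).

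The gene Atp1b1 lies at chr1:164437109-164458355 on the minus strand of the mouse genome (GRCm38, GENCODE M21 gene ENSMUSG00000026576.12, protein coding), and its longest transcript has 2580 bases with 49.5% GC. The siRNA in these cells is directed at a homeobox transcription factor, so the 250 bases upstream of the RefSeq start of the only member that could be tested are shown (chr1:164458356-164458605, minus strand, GRCm38.p6), with capitals for every match, on either strand, to the motifs searched.
Atp1b1 upstream: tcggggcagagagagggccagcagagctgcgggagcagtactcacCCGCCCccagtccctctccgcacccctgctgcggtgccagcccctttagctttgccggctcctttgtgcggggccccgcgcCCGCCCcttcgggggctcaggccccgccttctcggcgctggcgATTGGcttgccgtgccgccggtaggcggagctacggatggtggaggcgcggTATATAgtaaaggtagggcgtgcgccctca
Both strands were searched for each of 5 motifs. A TATA-like element, TATATA, which reads the same on both strands, stands 30 to 25 bases before the start. Of the 32851 upstream windows of the same length in RefSeq, 5.25% hold it. The box that binds nuclear factor Y, with the letters CCAAT, matches once on the other strand, 81 to 77 bases before the start (33.8% of windows). The GC box that binds Sp factors, searched as GGGCGG, matches 2 times on the other strand, 205 to 200 and 124 to 119 bases before the start (32.7% of windows). No match was found in this window to the canonical TATA box, searched as TATAA (22.8% of windows). The same holds for the core that many homeodomain proteins bind, with the letters TAAT (54.9% of windows). The window has 70.4% GC against a median of 52.4% over all windows, and 91.2% of windows have less. These matches describe the letters only, and binding was not measured.

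ATP1B2, the gene of the beta2 subunit, had 4 counts in all. The siN libraries 1 to 4 held 1, 1, 0 and 0 counts and the siHoxa5 libraries 0, 0, 0 and 2. That is 2 counts in each group, within the limit of 3 counts that a count of 0 allows, which corresponds to 4.53 to 5.39 CPM in a library. The exact Poisson 95% interval of the group's level reached 2.77 CPM in siN and 3.07 CPM in siHoxa5, for counting error only. The interval of the ratio of siHoxa5 to siN ran from 0.0801 to 15.2, so neither a fall nor a rise of several-fold was detectable at this depth. Atp1b2 lies at chr11:69599736-69605942, minus strand.

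ATP1B3, the gene of the beta3 subunit, had a single count, in siN library 2, and 0 counts in the other 3 siN libraries and in all 4 siHoxa5 libraries. The exact Poisson 95% upper limits were 2.14 CPM in siN and 1.57 CPM in siHoxa5. No fold change is given, since both groups are within the limit that a count of 0 allows. Atp1b3 lies at chr9:96332655-96364442, minus strand. ATP1B4, a beta-like gene outside the 3 members, was at 0 in all libraries. Almost all counts of beta subunits in this table were thus those of ATP1B1, and the members could not be compared with each other in their response.

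Per kilobase of the longest mouse transcript, and with library totals as the scale, the level of ATP1B1 was 1674 ± 40.6 CPM in siN and 1455 ± 94.6 CPM in siHoxa5 (SD, n = 4 each). On the same scale ATP1B2 was at 0 to 0.419 CPM in siN and 0 to 0.928 CPM in siHoxa5, and ATP1B3 reached 0.789 CPM in the 1 library with a count. ATP1B1 thus stood above the other members in every library. The rule by which reads were assigned to these rows is not known from the sources used here, and its part in the distance between the members' levels was not tested.

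Small proteins that bind the pump were hardly counted. FXYD1, which encodes phospholemman, the inhibitor that phosphorylation releases from the cardiac pump, had 1 count in siN library 1 and 0 in the other 7 libraries. FXYD2, FXYD3, FXYD4, FXYD5, FXYD6, FXYD7, NKAIN2 and NKAIN4 were at 0 throughout. NKAIN3 had a single count, in siHoxa5 library 1. NKAIN1, which encodes a membrane protein that interacts with the beta1 subunit, was the only one tested of 11 genes of this kind. Its CPM values were 47.7, 61.9, 39.3 and 47.5 in siN libraries 1 to 4 and 34.3, 32.8, 44.0 and 50.9 in siHoxa5 libraries 1 to 4. The groups overlap, and NKAIN1, with -0.28 on the log2 scale (SE 0.23) and an edgeR adjusted p = 0.556, did not pass. The subunit genes of the related pumps that exchange protons for potassium, ATP12A, ATP4A and ATP4B, were at 0.

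The lists reported around the pump hold 112 genes other than the members. Of these, 35 were tested, 2 rose, 3 fell and 30 did not pass, against 7.12% called among all tested genes. The median log2 fold change over all tested genes was -0.004. Of 31 genes of sodium entry and ion co-transport, 8 were tested (median -0.07), 1 rose, 1 fell and 6 did not pass. SLC20A1, a sodium-phosphate cotransporter, fell from 281, 200.02, 238 and 209.9 CPM in siN libraries 1 to 4 to 178, 146, 139 and 144 CPM in siHoxa5 libraries 1 to 4, with no overlap (log2 fold change -0.61, SE 0.12, edgeR adjusted p = 6.48e-05). SLC8A1, the exchanger that uses the pump's sodium gradient to export calcium, was higher, at 315 to 430 CPM in siHoxa5 against 256 to 320 CPM in siN. Its groups overlap, and its call (0.35, edgeR adjusted p = 0.00972) was lost without siHoxa5 libraries 2 and 4 (0.17, adjusted p = 0.481), without siHoxa5 library 2 alone (0.28, adjusted p = 0.102), without siN library 2 (0.29, adjusted p = 0.078) and once length and GC trends were taken out (0.19).

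SLC38A2, a sodium-coupled amino acid transporter, was at 189 to 263 CPM in siN and 260 to 311 CPM in siHoxa5, and did not pass (log2 fold change 0.30, SE 0.11, edgeR adjusted p = 0.059). It passed with a minimum of 50 counts (adjusted p = 0.0445), with the replicate block (0.0411), without siN library 3 (0.0363) and without siHoxa5 library 1 (0.0311). SLC6A6, the sodium-coupled taurine transporter, was at 372 to 425 CPM in siN and 300.4 to 417 CPM in siHoxa5, with -0.16 (adjusted p = 0.322). Both overlap between the groups. The list also holds SLC12A4 (-0.39, adjusted p = 0.342), which couples potassium to chloride and carries no sodium.

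The other P-type ATPases share the pump's phosphorylated intermediate but carry other ions or lipids. Of 25 listed, 8 were tested (median -0.09), and only ATP2A2 passed, in the direction opposite to ATP1B1. Over all tested genes 7.12% passed. ATP2A2, the calcium pump of the sarcoplasmic reticulum, went from 499.9 to 568 CPM in siN up to 752 to 971 CPM in siHoxa5 (log2 fold change 0.66, SE 0.07, edgeR adjusted p = 6.62e-14). The calcium pump of the plasma membrane ATP2B1 had -0.14 (SE 0.11), the lipid flippase ATP8B2 -0.14 (SE 0.13) and ATP13A3 0.20 (SE 0.20), and none of these passed.

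Among 22 genes of membrane anchors and signalling partners of the pump, 10 were tested and 0 passed by edgeR, DESeq2 or limma-voom, with 2 at an unadjusted edgeR p under 0.05 (median 0.10). Over all tested genes 7.12% passed by edgeR, so 0 of 10 is near that share. ANK2, the ankyrin that anchors the pump and the exchanger, had 0.71 (SE 0.26, adjusted p = 0.0736; 0.0477 without siHoxa5 library 4), SPTBN1, a beta-spectrin, 0.11 (adjusted p = 0.225), ADD1, an adducin, -0.16 and CAV1, caveolin-1, 0.15. CAVIN1, a coat protein of caveolae, stood at 1232 ± 48.9 CPM in siN and 1232 ± 163 CPM in siHoxa5 (SD, n = 4 each). Of 19 listed genes of the endoplasmic reticulum machinery in which the beta subunit is glycosylated and assembled with its partner, 17 have a row. The 8 tested had a median of -0.21. Of the 8, 2 fell, 0 rose and 6 did not pass, while 3.38% of all tested genes fell and 3.74% rose.

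HSPA5, the chaperone BiP, which binds unassembled pump subunits, fell from 1140 to 1208 CPM in siN to 897 to 951 CPM in siHoxa5 (log2 fold change -0.35, SE 0.06, edgeR adjusted p = 5.02e-06). RPN2, a subunit of the oligosaccharyltransferase that attaches N-linked sugars, fell from 278, 229, 241 and 276 CPM in siN libraries 1 to 4 to 219, 189, 194 and 178 CPM in siHoxa5 libraries 1 to 4 (-0.39, SE 0.11, adjusted p = 0.0132). The call of RPN2 was lost without siHoxa5 libraries 2 and 4 (-0.31, adjusted p = 0.15), without siN library 1 (-0.34) and without siN library 4 (-0.35). The catalytic subunits of the same enzyme, STT3A (-0.16) and STT3B (-0.02), did not pass, nor did HSP90B1 (-0.31, adjusted p = 0.0559), PDIA3 (-0.26) and CANX (-0.12). HSP90B1 passed under 5 alternatives (adjusted p = 0.0162 to 0.0452), among them the replicate block (0.0437). PDIA3 rested on single libraries, at -0.46 without siHoxa5 library 4 (adjusted p = 0.000584), -0.41 without siHoxa5 libraries 2 and 4 (adjusted p = 0.00896) and -0.17 without siHoxa5 library 1 (adjusted p = 0.353).

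**Figure D3:**
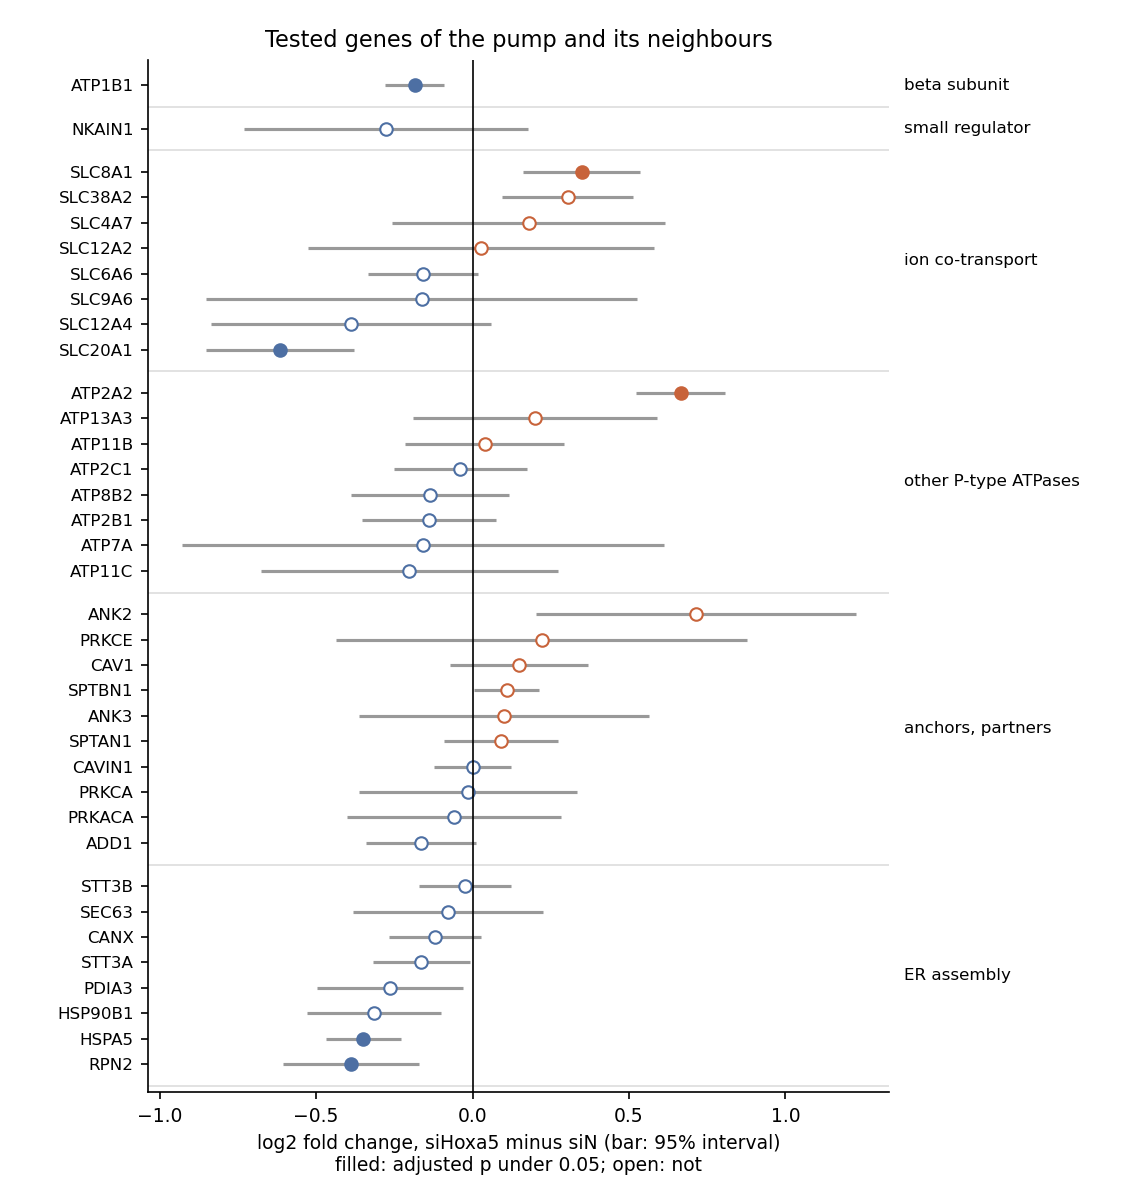
Log2 fold change, siHoxa5 minus siN (horizontal axis), with its 95% interval for the 36 tested genes of the pump and the listed genes around it, grouped by list. Filled points passed the adjusted threshold: ATP1B1 (-0.19), SLC20A1, HSPA5 and RPN2 are on the lower side and ATP2A2 and SLC8A1 on the higher side.

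Some markers of cell types differed between the groups as well. Of the 7 cardiomyocyte markers tested, 4 rose (MYH6 0.48, MYH7 0.24, TTN 0.51 and ACTN2 0.31 on the log2 scale), TNNT2 fell (-0.44, edgeR adjusted p = 0.0257) and 2 did not pass (RYR2 0.47, ACTC1 -0.03). Of 3 fibroblast markers tested, COL1A1 rose (0.21) and 2 did not pass, and 0 markers of the other cell types passed, of which 2 could be tested. Over all tested genes, 3.74% rose and 3.38% fell. The summed level of the 12 cardiomyocyte markers was 52779 to 56232 CPM in siN and 66303 to 71249 CPM in siHoxa5, and that of 10 fibroblast markers, of which LUM and TCF21 were at 0, 10083 to 10765 against 10812 to 12698 CPM. Both sums, which a few abundant genes such as MYH6, MYH7 and COL1A1 carry, were higher in siHoxa5. The sums of 8 endothelial markers (14.0 to 31.3 against 3.59 to 32.2 CPM; 6 at 0), 8 of smooth muscle and pericytes (9.32 to 30.4 against 12.6 to 29.0 CPM; 4 at 0) and 8 of neurons and glia (31.7 to 48.1 against 28.9 to 40.2 CPM; S100B, GFAP and TUBB3 at 0) overlapped. Of 8 macrophage markers 5 were at 0, and the sum was at most 1.80 CPM in any library. The part of these markers in the fall of ATP1B1 was not tested.

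The genes whose profiles over the 8 libraries were nearest to that of ATP1B1 were SET, UBLCP1, TUBB4B, LAMC1 and ARF6. Likeness was the root mean square difference between log2 CPM profiles centred on their means, 0.04 for SET, 0.05 for UBLCP1 and TUBB4B, and 0.06 for LAMC1 and ARF6, against a median of 0.24 over all tested genes. That median includes the counting error of weakly counted genes. UBLCP1 had only 22 to 34 counts per library, and the SE of its fold change (0.22) was far above 0.05. Its place among the nearest genes is therefore uncertain. SET encodes a histone-binding inhibitor of protein phosphatase 2A, and its level was 1693 to 1823 CPM in siN and 1468 to 1631 CPM in siHoxa5. The nearest genes were picked by this likeness, so similar fold changes follow from the choice, as does a tendency to share the lowest library. LAMC1 was the exception, lowest in siHoxa5 library 3 (-0.19 on the centred log2 scale, against -0.14 in siHoxa5 library 4). SET, like ATP1B1, was lowest in siHoxa5 library 4. Its log2 fold change of -0.16 did not pass (edgeR adjusted p = 0.0601), though SET passed under 5 alternatives (adjusted p = 0.0277 to 0.0496). ARF6, a small GTPase of membrane traffic at the cell surface, went from 1325 ± 57.3 to 1175 ± 74.2 CPM (SD, n = 4 each; -0.17, adjusted p = 0.0496), a call lost under most alternatives. TUBB4B, a beta-tubulin, had -0.19, LAMC1, the laminin gamma1 chain, -0.18 and UBLCP1, a phosphatase of the proteasome, -0.19, and none of the 3 passed; LAMC1 did once length and GC trends were taken out (-0.24, adjusted p = 0.0499).

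**Figure D4:**
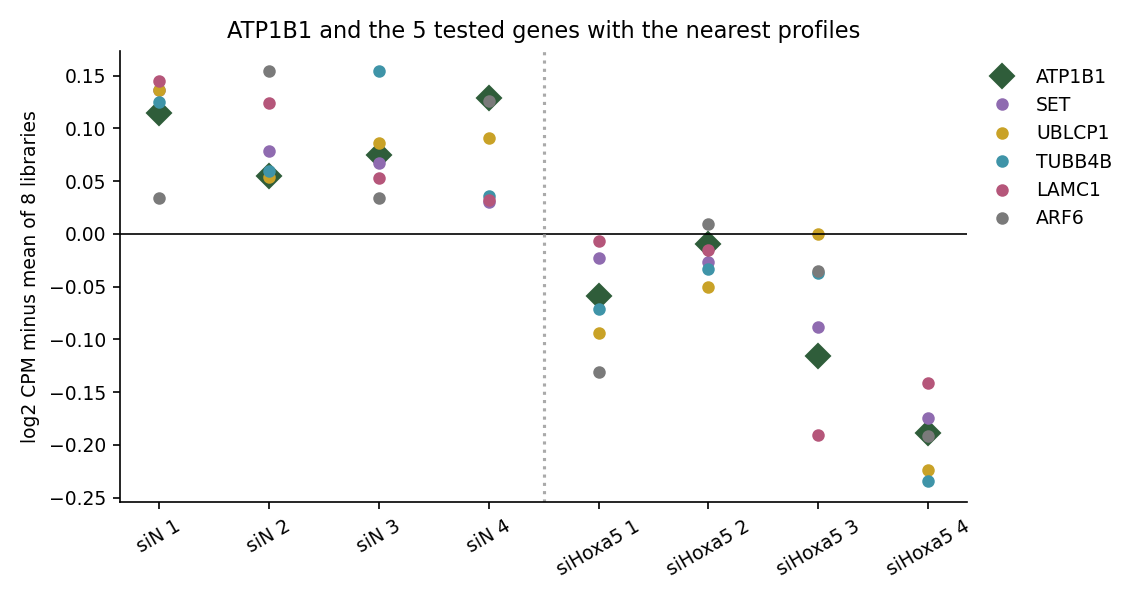
Log2 CPM minus the gene's mean over the 8 libraries (vertical axis) in each library (horizontal axis) for ATP1B1 (diamonds) and the 5 tested genes with the nearest profiles. ATP1B1 lies between 0.06 and 0.13 in the siN libraries and between -0.19 and -0.01 in the siHoxa5 libraries.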

How the data were processed

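The deposited table holds estimated counts per gene symbol that the authors did not normalize. The submitters' processing notes name the mm10 build, STAR 2.6.1b, HTSeq, FastQC 0.11.8 and R 3.5.3. Annotation, strand setting and handling of shared reads are not stated. Groups and replicate numbers come from the sample titles. Counts were rounded and tested with edgeR 4.0.16 (quasi-likelihood, robust, R 4.3.3) on all 8 libraries with the group as the only term, after TMM scaling and filterByExpr (minimum count 10, total 15), with Benjamini-Hochberg adjustment over 3020 genes. CPM of untested rows use all counts of a library. Standard errors are the fold change over the root of F. Log2 CPM use a prior count of 2. DESeq2 1.42.0 and limma-voom (limma 3.58.1) were alternatives.

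The members and the gene lists were chosen with earlier results of these data known. Some listed genes are not reported here. Genes named are the members, regulator genes with a count, up to 4 genes of smallest p and any called in each list, and the 5 nearest profiles; SLC12A4, CAVIN1, STT3A, STT3B, CANX, genes at 0 and markers were named after their values were seen. The edgeR step was tested on simulated counts. They had the same spread beyond counting error for every gene and in both groups, whereas the real siHoxa5 libraries varied more. The edgeR step recovered 18.4% of changes of 1.15-fold, 28.6% of 1.25-fold, 76% of 1.5-fold and 92% of 2-fold. Of 111 calls, 4 were false. These rates pool genes of different count levels and are not specific to a row as deeply counted as ATP1B1. A gene that did not pass may therefore still have changed by a small amount. Annotation is GENCODE M21 and RefSeq GRCm38.p6, matched by symbol. Every pair of libraries within a group differed beyond counting noise. Intervals cover counting error only where counts are summed.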

Additional observations from a re-analysis of the deposited data

Results flagged for a closer look

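In 1 of 46 groups of 4 libraries examined for the named genes, 1 library lay far from the other 3; chance gives about 1 in 20. ANK2 in siHoxa5 library 1 was at 65.3 CPM, the others being at 38.2 to 41.9 CPM, a gap of 0.863 of the range. Without that library ANK2 had 0.50 (edgeR adjusted p = 0.321). ATP1B1 had no such library in either group.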

How the results depend on the processing

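ATP1B1 was lower in siHoxa5 and passed under DESeq2, limma-voom, both other scalings, both other filters, the replicate block and every library left out (-0.21 to -0.15), and missed the threshold only once length and GC trends were taken out (-0.13). The cause was not tested. Some passes of ATP1B1 were close to the threshold of 0.05. The edgeR adjusted p was 0.042 without siN library 4, 0.0362 with no filter and 0.0341 without siN library 1. Over all genes, 215 passed, against 119 with DESeq2, 143 without siHoxa5 libraries 2 and 4, and 145 to 260 with 1 library left out. With the replicate block 250 genes passed and ATP1B1 had -0.19. Deviations of same-numbered libraries had correlations of -0.02 to 0.07, against -0.05 to 0.04 for libraries of different number. Values this small do not show a pairing by number, and they do not exclude one. ATP1B2 and ATP1B3 passed no filter on low counts. No fitted fold change is given for them, and the planned comparison between members was not run, because their counts in both groups are within the limit that a count of 0 allows.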
